A study of Mus musculus with 37 samples.

Results

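The genes described here were 7 markers of basal urothelial cells, Krt5, Krt14, Krt15, Krt17, Trp63, Cdh3 and Cd44, read by symbol out of 24421 gene symbols. Levels were taken in all 37 libraries as CPM, the estimated count of a gene divided by the total of its library and scaled to 1000000. Whole transcriptome sequencing was made from bulk tissue of female BALB/c mice. UT (n = 11, from 10 mice) and UN (n = 7) were the cancer side and the noncancer side of the upper urinary tract of mice that received 0.05% BBN, a nitrosamine bladder carcinogen, in drinking water for 18 weeks from 6 to 7 weeks of age. BBN bladder (n = 10) was the bladder of the same mice. U (n = 6) was the right and the left ureter of 3 untreated mice on tap water, whose age the labels do not give, and untreated bladder (n = 3) was the bladder of those 3 mice. UT 5R and UT 5L were both ureters of mouse 5. The library names carry N for the BBN bladders, as they do for UN, except for BBN bladder 6, which carries T, while the sample titles give bladder only.

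The urothelium renews from a layer of basal cells on the basement membrane, covered by intermediate cells and by luminal umbrella cells that make uroplakins. Basal cells are known by keratin 5 and, in part of them, keratin 14, which pair as filament partners of type II and type I, and by the transcription factor p63 (Trp63), which acts upstream of many basal keratin genes. Keratin 15 marks basal cells of many stratified epithelia, keratin 17 is a keratin of wounds, appendages and squamous cancers, Cdh3 encodes P-cadherin, an adhesion protein of basal layers, and Cd44 encodes a hyaluronan receptor that leukocytes also carry. In urothelial carcinoma, a high level of this set names the basal or basal-squamous subtype.

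The keratins of the set lie in clusters of similar genes, and this limits what their counts can separate. In the GRCm38 annotation of GENCODE vM21, Krt14 (11:100203162-100207548), Krt15 (11:100131758-100135928) and Krt17 (11:100256217-100261029) lie on the minus strand of chromosome 11, and Krt5 (15:101707070-101712898) on the minus strand of chromosome 15. The reads were 100 bases long. Of the 100-base windows of the coding sequence, 46 of 1353 (3.4%) of Krt14 were also found in Krt16, and 50 of 1641 (3.05%) of Krt5 in Krt6a or Gm5478, while none of Krt15, Krt17, Trp63, Cdh3 or Cd44 were found in another coding sequence. The deposited count was not whole in 33 of the 37 libraries for Krt5, 28 for Krt14, 27 for Krt15 and 21 for Krt17, and it was whole in all 37 for Trp63, Cdh3 and Cd44.

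Stretches that Krt14 shares with Krt16 and with Krt17 are shown to compare them with the length of a read, since a read wholly inside the first cannot be given to 1 gene by its letters, while the second is too short to hold one. Capitals mark the longest run of identical bases and lower case the 15 bases on either side, all in coding exons and written 5′ to 3′ on the minus strand of GRCm38, from the GENCODE vM21 transcripts. Krt14 and Krt16, a keratin of wounded and squamous epithelium, share 134 bases of exon 1 (Krt14 at chr11:100207002-100207165, Krt16 at chr11:100248461-100248624).
Krt14: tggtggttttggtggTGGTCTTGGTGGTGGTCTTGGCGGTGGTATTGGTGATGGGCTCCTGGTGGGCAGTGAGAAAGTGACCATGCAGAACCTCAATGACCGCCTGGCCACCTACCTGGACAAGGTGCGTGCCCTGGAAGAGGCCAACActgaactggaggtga
Krt16: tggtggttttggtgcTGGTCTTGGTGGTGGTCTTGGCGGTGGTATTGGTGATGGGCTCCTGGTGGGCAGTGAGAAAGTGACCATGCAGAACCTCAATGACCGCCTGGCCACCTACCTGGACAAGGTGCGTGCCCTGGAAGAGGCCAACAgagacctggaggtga
Krt14 and Krt17 share 71 bases of exon 6, shorter than a read, and the bases after it run into exon 7 (Krt14 at chr11:100204108-100204199 and chr11:100204012-100204020, Krt17 at chr11:100257433-100257524 and chr11:100257337-100257345).
Krt14: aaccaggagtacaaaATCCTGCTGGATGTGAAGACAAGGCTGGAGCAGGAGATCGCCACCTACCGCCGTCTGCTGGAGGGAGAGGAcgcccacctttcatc
Krt17: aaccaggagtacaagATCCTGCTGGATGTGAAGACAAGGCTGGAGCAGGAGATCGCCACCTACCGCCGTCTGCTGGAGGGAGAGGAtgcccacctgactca
The counts of Krt14 against Krt16, and of Krt5 against Krt6a and Gm5478, are therefore uncertain for reads within shared windows. The windows do not cover all counts that were not whole. Those of Krt15 (27 libraries) and Krt17 (21 libraries) occurred without a shared window, and their source was not tested. The search took single windows and left out the second read of a pair.

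Trp63 (16:25683763-25892102, plus strand), Cdh3 (8:106510891-106557297, plus strand) and Cd44 (2:102811141-102901665, minus strand) lie on other chromosomes. Since p63 belongs to the p53 family and binds its half-sites, the promoters of the members were searched for that half-site by its consensus, and for TATAAA on the gene's strand, TGANTCA (AP-1), GCCNNNGGC (AP-2) and GGGCGG (SP1) on both strands. RefSeq promoters of GRCm38.p6, from 250 bases before to 50 after a start, were at hand for 3 members, Krt5, Krt14 and Cd44. The Krt5 promoter (chr15:101712856-101713155, minus strand) holds 1 p53 family half-site, in capitals, beginning 95 bases before the start.
Krt5 promoter: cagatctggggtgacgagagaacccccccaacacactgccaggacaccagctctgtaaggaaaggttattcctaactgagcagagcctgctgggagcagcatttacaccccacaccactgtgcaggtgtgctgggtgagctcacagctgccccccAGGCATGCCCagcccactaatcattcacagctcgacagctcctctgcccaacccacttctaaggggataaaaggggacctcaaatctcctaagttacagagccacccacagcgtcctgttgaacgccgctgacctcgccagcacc
Of 32851 promoters of the same length, 8.36% hold such a half-site. The Krt14 window (chr11:100205981-100206280) lies inside the gene and holds no match to any of the 5 motifs, and the Cd44 window (chr2:102901616-102901915) holds 1 GGGCGG, a motif of 35.7% of the promoters. The TATA, AP-1 and AP-2 motifs, found in 8.32%, 7.81% and 16.6% of the promoters, had no match in the 3 windows. A match is a run of letters, with no binding measured here.

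Some libraries stood apart and bear on every result. Totals ranged from 3557697 to 18793560 counts. UN 6 and BBN bladders 1, 3 and 4 were of low RNA integrity in the study's sequencing statistics and also had the lowest totals (4675081, 6335556, 3557697 and 7820510). UN 2 held almost no epithelium by its markers, since 10 general epithelial genes such as Cdh1 and Epcam summed to 12.5 CPM there, against 190 to 2015 CPM in the other UN libraries. The same library had the most leukocyte RNA (10 genes, 6718 CPM) and adipocyte RNA (6 genes, 61420 CPM) of UN. UT 4, which had the highest Krt17 of UT, held 2251 CPM of kidney tubule genes (7 listed), against 1.65 to 10.8 CPM in the other UT libraries. UT 9 had the lowest epithelial sum of UT (404 CPM) and the highest adipocyte sum (38460 CPM). In bulk tissue, fewer basal cells and less RNA of these genes per cell cannot be told apart.

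In untreated tissue, the basal genes were expressed in both organs, but with a different make-up. Per kilobase of exon, which allows genes to be compared, Krt5 was the highest of the 7 in U (median 57.2 CPM per kb), followed by Krt15 (8.94), Trp63 (8.06), Cd44 (5.78), Krt14 (4.50), Cdh3 (0.411) and Krt17 (0.389). In untreated bladder the order began with Krt15 (816 CPM per kb), then Krt5 (258) and Trp63 (45.3), and ended with Krt14 (5.37), Cdh3 (1.99) and Krt17 (0.575). The 7 genes together took 0.0176% to 0.0296% of all counts in U and 0.231% to 0.255% in untreated bladder.

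Of the 7 genes, Krt15 had the largest difference between the untreated organs. It was 1169, 1442 and 1467 CPM in the 3 untreated bladders, and from 9.23 to 20.3 CPM in U, with a median of 15.8. Every U library was below every untreated bladder. Krt15 was lower in U by edgeR's quasi-likelihood test (log2 fold change -6.20 ± 1.07 SE, Benjamini-Hochberg adjusted p = 0.00027), and it stayed called, with an adjusted p under 0.1 and at least 2-fold, in all 16 alternative settings run. Trp63 was 345, 380 and 393 CPM in untreated bladder and 37.6 to 88.4 CPM (median 67.6) in U, also without overlap, and was lower in U (log2 fold change -2.25 ± 0.71 SE, adjusted p = 0.0303).

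Of the 7 genes, 4 were called lower in U than in untreated bladder, where 8.61% of the 18959 genes tested were. The other pair were Cdh3 (log2 fold change -2.0 ± 0.75 SE, adjusted p = 0.077) and Cd44 (-1.27 ± 0.50 SE, adjusted p = 0.0896). Krt5 was 473, 567 and 616 CPM in untreated bladder and 85.8 to 137 CPM in U, and its difference (-1.91 ± 0.86 SE) was not called (adjusted p = 0.153). With the mouse as a replicate block, which 3 mice allow, Krt5 was called as well (-1.84 ± 0.12 SE, adjusted p = 7.72e-07), and 5 of the 7 genes were lower. With the ureters of a mouse summed to 1 library, only Krt15 of the 7 was called, and leaving out any 1 of the 9 libraries lost Cd44, and Cdh3 too except without U 1R or untreated bladder 2, so that 2 or 3 of the 7 remained.

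The ranges of 5 members, Krt5, Krt15, Trp63, Cdh3 and Cd44, did not overlap between U and untreated bladder and were lower in U, but so were those of 48.9% of the 14299 genes compared. The 10 general epithelial genes summed to 257 to 482 CPM in U and to 2234 to 2478 CPM in untreated bladder, and 9 of them were called lower in U, as were 5 of 8 smooth muscle and 3 of 8 fibroblast genes, while all 6 adipocyte genes were higher, with 44830 to 69490 CPM in U. The part of this difference in tissue make-up was not tested. Divided by the epithelial sum, Krt15 was still lower in U (median ratio 0.0375, against 0.592 in untreated bladder). Krt5 was higher in U by this ratio (0.319 and 0.229), as were Cd44 (0.0981 and 0.0453), Krt14 (0.0194 and 0.00381) and Krt17 (0.00173 and 0.00036), each without overlap, while the ranges of Trp63 (0.177 and 0.154) and Cdh3 (0.00477 and 0.00352) overlapped. These ratios are a description.

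Krt14 and Krt17 were low in both organs before BBN. Krt14 was 5.82, 9.45 and 14.0 CPM in untreated bladder and 5.14 to 8.84 CPM (median 7.91) in U. Krt17 was 0.836, 0.892 and 0.938 CPM in untreated bladder and 0.348 to 1.08 CPM in U. Neither was called between the organs (Krt14, log2 fold change -0.06 ± 1.01 SE, adjusted p = 0.984, with estimates from -0.34 to 0.30 over 16 alternatives; Krt17, -0.15 ± 1.13 SE, adjusted p = 0.96). The right and left ureters of the 3 untreated mice differed by at most 1.73-fold for Krt5, Krt14, Krt15, Trp63, Cdh3 and Cd44, and by up to 3.12-fold for Krt17.

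**Figure D1:**
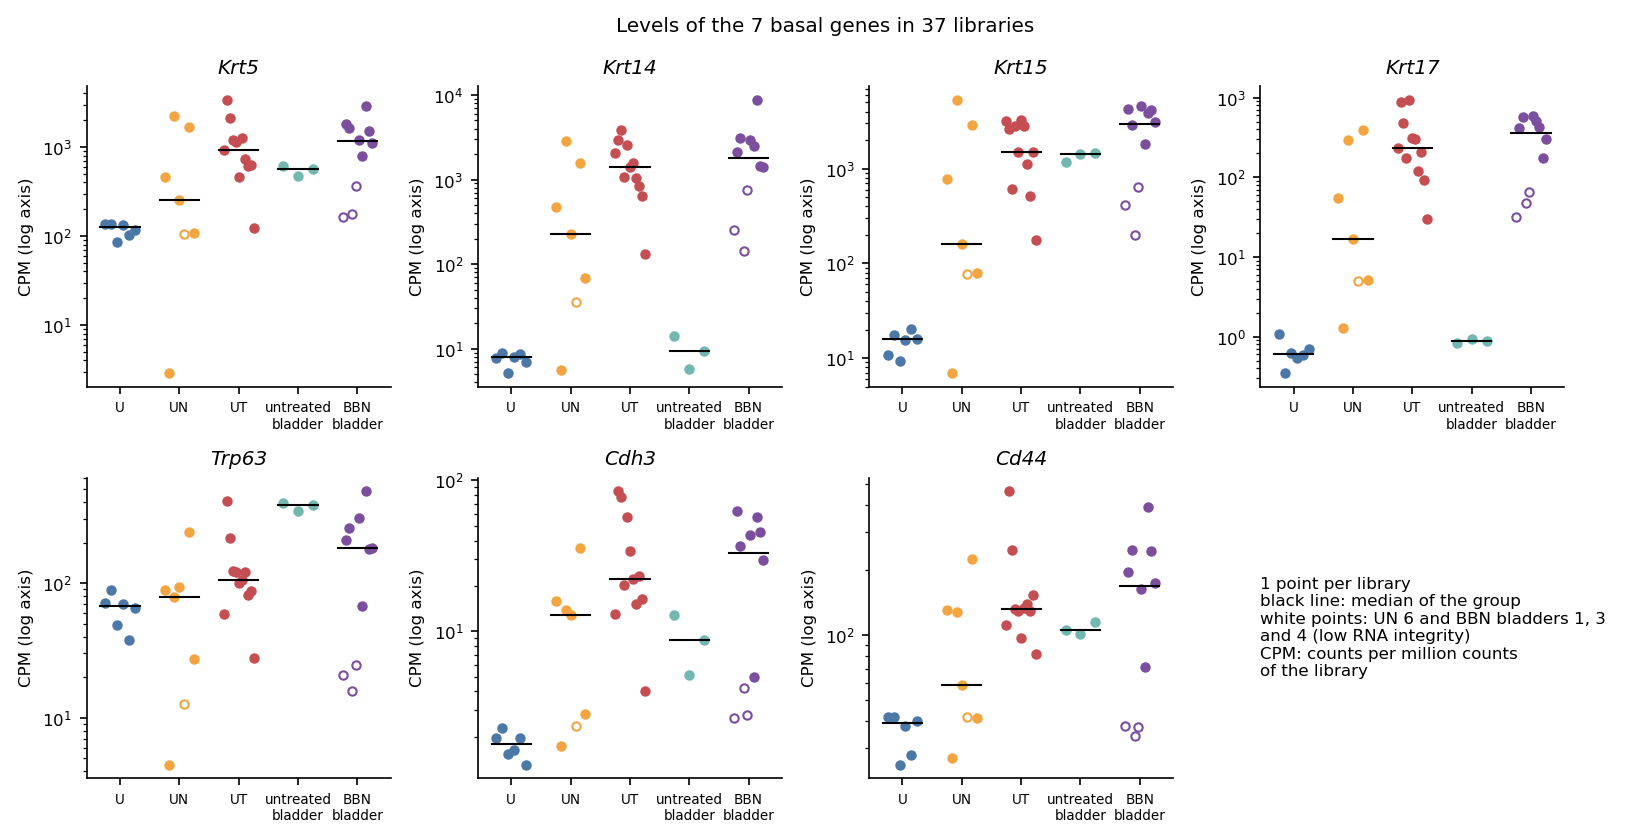
Level of each of the 7 genes in CPM, on a log axis, with 1 point per library in U (6), UN (7), UT (11), untreated bladder (3) and BBN bladder (10); black lines are group medians and white points are UN 6 and BBN bladders 1, 3 and 4. Krt14 and Krt17 are low in both untreated groups, Krt15 is low in U but not in untreated bladder, and the UN libraries spread over up to 780-fold.

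After BBN, Krt14 and Krt17 rose in both organs. In BBN bladder, Krt14 ranged from 142 to 8812 CPM with a median of 1782, and Krt17 from 31.4 to 587 CPM. All 10 BBN bladders were above all 3 untreated bladders for both genes. Krt14 rose by 8.08 ± 1.32 (SE) on the log2 scale (adjusted p = 0.00121) and Krt17 by 8.61 ± 1.08 (adjusted p = 0.000149), and both were called in all 20 alternative settings. These 2 of the 7 genes were called, where 7.61% of the 18050 genes tested were called higher. The ranges of 5.3% of 15857 genes were higher in BBN bladder without overlap. Of other cell types, 4 of 8 fibroblast genes were called lower in BBN bladder (median log2 fold change -1.63 over the list, with sums of 784 to 5677 CPM against 5424 to 7681 CPM in untreated bladder) and 2 of 10 leukocyte genes higher, and their part in these rises was not tested.

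With all 10 libraries, edgeR called none of the other 5 members in the bladder, while DESeq2 called Krt5 (1.27, adjusted p = 0.0475) and Cdh3 (1.79, adjusted p = 0.0389). Krt5 was 162 to 2891 CPM (median 1165) in BBN bladder, with a log2 fold change of 1.22 ± 0.65 SE (adjusted p = 0.215). Krt15 was 200 to 4576 CPM (median 2986; 1.05 ± 0.69 SE, adjusted p = 0.312). Cdh3 went from 5.13, 8.73 and 12.9 CPM to 2.68 to 62.4 CPM (1.76 ± 0.79 SE, adjusted p = 0.158). Cd44 went from 101, 105 and 115 CPM to 34.3 to 392 CPM (0.71 ± 0.53 SE, adjusted p = 0.378). Trp63 was 15.7 to 482 CPM (median 181) in BBN bladder, with a fold change below 0 (-1.01 ± 0.65 SE, adjusted p = 0.299).

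The edgeR calls in the bladder also changed without the libraries of low RNA integrity. BBN bladders 1, 3 and 4 had the 3 lowest values of the 10 for all 7 genes. Without these 3 libraries, 6 of the 7 genes were called higher, beside 11.3% of 15735 genes. Krt5 then rose by 1.58 ± 0.37 (SE) on the log2 scale (adjusted p = 0.0115), Krt15 by 1.45 ± 0.29 (adjusted p = 0.00467), Cdh3 by 2.18 ± 0.55 (adjusted p = 0.0173) and Cd44 by 1.04 ± 0.36 (adjusted p = 0.063). Trp63 stayed uncalled at -0.59 ± 0.38 (adjusted p = 0.31). The epithelial sum was 456, 654 and 706 CPM in these 3 libraries, against up to 4465 CPM in the others, and the part of RNA integrity or of tissue make-up was not tested.

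In the upper urinary tract, 6 of the 7 genes were higher in UT than in U, where 18.7% of the 15658 genes tested were called higher. Krt17, Krt14 and Krt15 had the largest fold changes of the 7. Krt17, from 0.348 to 1.08 CPM in U, was 29.8 to 941 CPM (median 235) in UT, and rose by 8.76 ± 1.26 (SE) on the log2 scale (adjusted p = 4.15e-05). Krt14 was 132 to 3834 CPM (median 1405) in UT and rose by 7.50 ± 1.11 (adjusted p = 4.87e-05). Krt15 was 175 to 3244 CPM (median 1515) and rose by 6.66 ± 1.14 (adjusted p = 0.00015). All 11 UT libraries were above all 6 U libraries for these 3 genes.

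Of the adhesion genes, Cdh3 went from 1.31 to 2.30 CPM in U to 4.04 to 84.9 CPM in UT (log2 fold change 3.94 ± 0.64 SE, adjusted p = 0.000106), and Cd44 from 25.2 to 41.9 CPM to 81.7 to 463 CPM (1.94 ± 0.37 SE, adjusted p = 0.00037), both without overlap. Krt5, already present in U, was 123 to 3400 CPM (median 926) in UT and rose by 3.0 ± 0.82 (SE) on the log2 scale (adjusted p = 0.00525). Only UT 9, at 123 CPM, lay within the range of U for Krt5. The 5 members without overlap compare with 15.5% of 14894 genes that were higher in UT without overlap. The 6 calls held in all 32 alternative settings.

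Trp63 was the exception of the set. It was 27.6 to 405 CPM (median 106) in UT and 37.6 to 88.4 CPM in U, and the groups overlapped. Its log2 fold change of 0.78 ± 0.51 SE was not called (adjusted p = 0.223), and none of the 32 alternatives called it (adjusted p from 0.113 to 0.463). Relative to the 10 epithelial genes, the median ratio of Trp63 was 0.177 in U, 0.0663 in UN and 0.0588 in UT, and 0.154 in untreated and 0.0494 in BBN bladder. For Krt5 the same ratio was 0.319 in U, 0.262 in UN and 0.514 in UT, and for Cd44 it was 0.0981, 0.102 and 0.0675, lower in UT than in U by its median while its CPM was higher. The epithelial sum itself was 404 to 3778 CPM in UT, and 9 of its 10 genes were called higher in UT than in U, beside 8 of 10 leukocyte genes. All 6 adipocyte genes (median log2 fold change -2.59) and 6 of 8 smooth muscle genes (median -1.64) were called lower in UT, where the adipocyte sum was 56.3 to 38460 CPM. The part of tissue make-up in the rises of Krt5 and Cd44 was not tested.

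**Figure D2:**
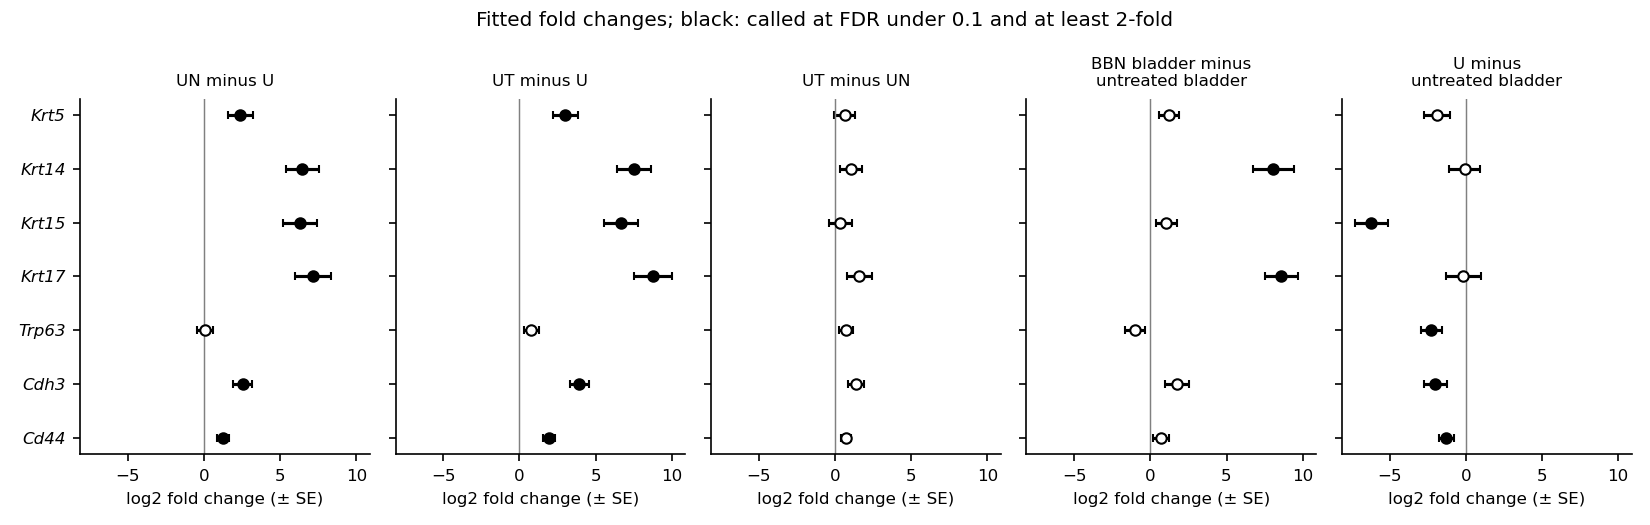
Fitted log2 fold changes of the 7 genes with their standard errors (SE) in 5 comparisons, from edgeR; black points passed an adjusted p under 0.1 and at least 2-fold, white points did not. Krt14 and Krt17 are far above 0 in the 3 comparisons of BBN with untreated tissue, Krt15 in the 2 of the ureter, and Trp63 is white in each of them.

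The noncancer side had the same genes called. Against U, 6 of the 7 genes were called higher in UN, with a background of 12.5% of the 15658 genes. Krt17 rose by 7.14 ± 1.20 (SE) on the log2 scale (adjusted p = 0.000883), Krt14 by 6.45 ± 1.07 (adjusted p = 0.000848) and Krt15 by 6.30 ± 1.13 (adjusted p = 0.00138). Cdh3 rose by 2.54 ± 0.62 (adjusted p = 0.0108), Krt5 by 2.36 ± 0.83 (adjusted p = 0.0591) and Cd44 by 1.22 ± 0.38 (adjusted p = 0.0365). Trp63 showed no difference past the threshold (0.05 ± 0.55 SE, adjusted p = 0.962), and its direction turned in 4 of the 33 alternatives. Beside these, 4 of the 10 epithelial genes (median log2 fold change 1.26) and 6 of the 10 leukocyte genes (median 1.49) were called higher in UN, with leukocyte sums of 437 to 849 CPM in U and 276 to 6718 CPM in UN, and their part in the rises of Cd44 and the other genes was not tested.

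Behind these means, the UN libraries differed widely. Krt14 was 5.67 CPM in UN 2, 35.5 in UN 6, 68.0 in UN 9, 230 in UN 4, 479 in UN 1, 1585 in UN 7 and 2849 CPM in UN 3. UN 2 lay within the range of U, and the other 6 UN libraries were above every U library. Krt15 followed the same order at its ends, from 6.95 CPM in UN 2 to 5344 CPM in UN 3, the highest Krt15 of all 37 libraries. Krt5 ran from 2.88 CPM in UN 2, below every other library, to 2244 CPM in UN 3. Krt17 ran from 1.28 CPM in UN 2 to 391 CPM in UN 7 and was the single member whose range did not meet that of U, beside 2.08% of 14737 genes. UN 2 was the lowest of UN for all 7 genes, and UN 3 or UN 7 the highest.

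The smaller calls in UN rested on few libraries. Without UN 3, Krt5 fell to a log2 fold change of 1.56 (adjusted p = 0.212), and without UN 7 to 2.09 (adjusted p = 0.11). Without UN 7, Cd44 was at 0.96 (adjusted p = 0.0931), under the fold limit. Krt5 was also lost without U 1R, U 1L, U 2L or U 3R. Without UN 2, the same 6 genes were called. With the 2 ureters of each untreated mouse summed, only Krt14 (6.44, adjusted p = 0.0884) and Krt17 (7.15, adjusted p = 0.0855) were called, and Krt15 was at an adjusted p of 0.106. With limma-voom and the mouse as a random effect, Krt5 was at 0.68 (adjusted p = 0.68) and Cdh3 at an adjusted p of 0.135.

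Between the 2 sides of BBN-treated mice, 0 of the 7 genes were called by edgeR, where 1.32% of the genes tested reached a call upward and 4.2% downward in UT. All 7 estimates were above 0, from 0.36 ± 0.77 (SE) for Krt15 to 1.61 ± 0.80 for Krt17 on the log2 scale. Cdh3 came nearest (1.40 ± 0.52 SE, adjusted p = 0.113), and Cdh3 and Cd44, 2 of the 7, had an unadjusted p under 0.05, as had 25.3% of all genes. DESeq2 called 1, Cdh3 (1.43, adjusted p = 0.0467), and limma-voom with the mouse as a random effect called 0. The ranges of UT and UN overlapped for all 7 genes, and over 15015 genes 0.00666% were higher in UT without overlap.

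The call depended on single libraries. Without UN 3, Krt14 (log2 fold change 2.13, adjusted p = 0.0675), Krt17 (2.21, adjusted p = 0.0901) and Cdh3 (1.47, adjusted p = 0.0884) were called. Without UN 7, Krt17 (2.26, adjusted p = 0.0779), Trp63 (1.22, adjusted p = 0.092) and Cdh3 (1.84, adjusted p = 0.0359) were. Cdh3 was also called without UT 1 (1.48, adjusted p = 0.093) and without UT 9 (1.53, adjusted p = 0.0525). With the mouse as a replicate block, 0 of the 7 were called.

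Within the 7 mice that gave both sides, UT exceeded UN in 5 and fell below it in 2 for each of the 7 genes. For the 4 keratins, mice 3 and 7 were the exceptions. In mouse 7, Krt15 was 2884 CPM in UN and 518 CPM in UT, and in mouse 3 it was 5344 and 2821 CPM. For Trp63, Cdh3 and Cd44, the exceptions were mice 1 and 7. The largest differences were those of mouse 2, whose UN library was the one with 12.5 CPM of epithelial genes: Krt14 differed there by 9.17 and Krt5 by 9.09 on the scale of log2(CPM + 1). The median difference over the 7 mice was 2.11 for Krt14, 2.32 for Krt17, 2.03 for Krt15, 1.01 for Krt5, 0.96 for Cd44, 0.52 for Cdh3 and 0.36 for Trp63.

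**Figure D3:**
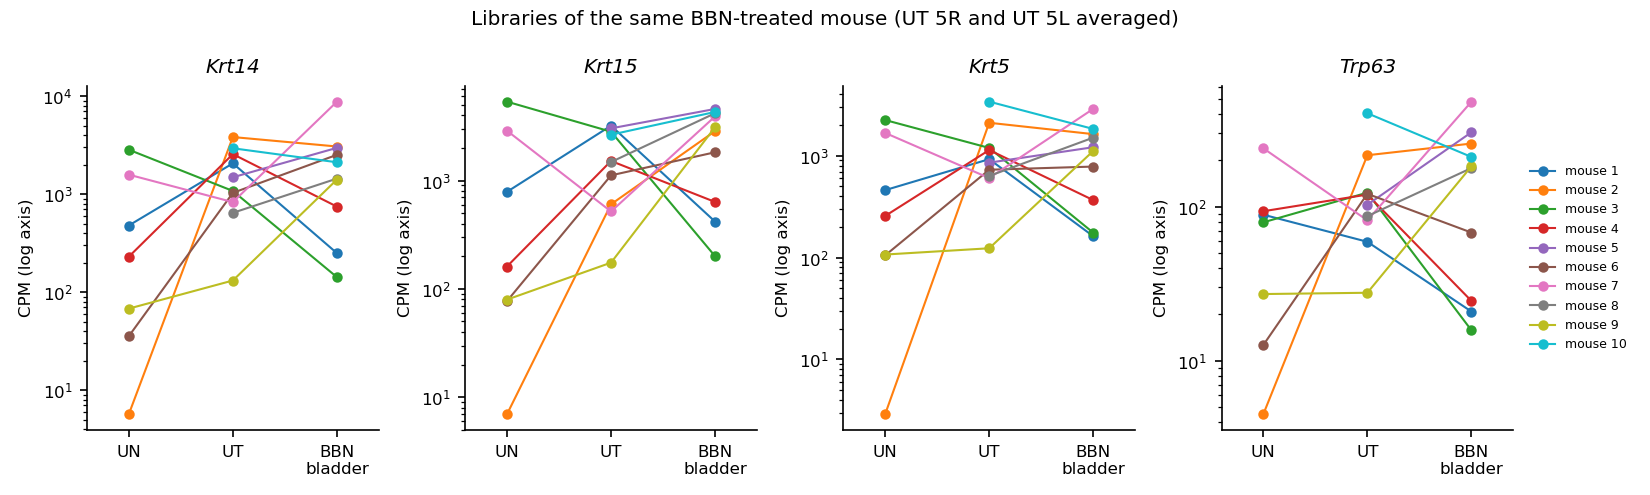
Levels of Krt14, Krt15, Krt5 and Trp63 in CPM, on a log axis, in UN, UT and bladder of each of the 10 BBN-treated mice; a line joins the libraries of a mouse, and UT 5R and UT 5L were averaged. The lines of mice 3 and 7 fall from UN to UT for the 3 keratins, that of mouse 2 rises most, and those of mice 1, 3 and 4 end low in the bladder.

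Set against the BBN bladders, 0 of the 7 genes were called in UT by edgeR, DESeq2 or limma-voom, where the background was 6.99% called higher and 21.9% called lower. By edgeR, 0 had an unadjusted p under 0.05, beside 41.0% of all genes. The estimates ran from -0.57 ± 0.62 (SE) for Krt14 to 0.24 ± 0.47 for Cdh3 on the log2 scale, and those of Krt17, Krt5, Cd44 and Cdh3 changed sign in at least 1 alternative. UN had 0 of 7 called against BBN bladder by edgeR, with all 7 estimates below 0, from -0.71 ± 0.63 for Krt5 to -1.63 ± 0.74 for Krt14, with 9.64% of all genes called lower and 8.68% higher. In that comparison 4 of the 7 had an unadjusted p under 0.05, beside 32.1% of all genes. DESeq2, and edgeR with RLE normalization, called Krt14, Krt17, Trp63 and Cdh3 lower in UN, as did edgeR without the libraries of low RNA integrity, and limma-voom with the mouse as a random effect called the 4 keratins. Without UN 3, edgeR called the 4 keratins, and without UN 7 it called 3 genes, Krt17, Trp63 and Cdh3.

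In 3 of the mice, the bladder stood low while the ureter did not. Krt15 in mice 1, 3 and 4 was 3207, 2821 and 1515 CPM in UT and 417, 200 and 634 CPM in the bladder, the libraries of low RNA integrity. Mouse 9 was the reverse, with 175 CPM in UT and 3112 CPM in the bladder. Over the 10 mice, UT was above the bladder in 5 for Krt14 and Krt5 and in 3 for Krt15.

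The change with BBN differed between the organs for Krt15. Krt15 went from a median of 15.8 CPM in U to 161 CPM in UN, and from 1442 CPM in untreated to 2986 CPM in BBN bladder. By group means, Krt15 went from 14.9 to 1334 CPM in the ureter, with UN 3 at 5344 and UN 7 at 2884 CPM. In the bladder the means were 1359 and 2601 CPM. The median epithelial sum was 399 CPM in U, 1086 in UN, 2323 in untreated and 3028 in BBN bladder, and its part was not tested. The interaction, which tests UN minus U against BBN bladder minus untreated bladder, was 5.32 ± 1.20 (SE) on the log2 scale (adjusted p = 0.0162). Krt15 was the 1 member called, where 1.74% of the 18959 genes were called higher and 0.469% lower. It was called in 22 of 23 alternatives, and the call was lost with limma-voom and the mouse as a random effect (3.58, adjusted p = 0.215), the 1 setting of these that took into account that libraries share a mouse. Krt14 (-1.57 ± 1.28 SE, adjusted p = 0.613) and Krt17 (-1.40 ± 1.37 SE, adjusted p = 0.677), which rose in both organs, had no interaction past the threshold.

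After BBN, the order of the group medians was therefore not the same for all members. For Krt14, Krt17 and Cdh3 the medians ascended from U and untreated bladder through UN to UT and BBN bladder. For Krt15, UN (median 161 CPM) lay below untreated bladder (1442 CPM), UT (1515 CPM) beside it and BBN bladder (2986 CPM) at the top. For Krt5 the order was U, UN, untreated bladder, UT and BBN bladder, and for Cd44 the same. Trp63 was the member with its highest median in untreated bladder (380 CPM), followed by BBN bladder (181), UT (106), UN (79.2) and U (67.6). UT and BBN bladder, next to each other in the order for all 7 members, had no difference past the threshold for any of these by edgeR.

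Per kilobase of exon, Krt15 and Krt14 led in UT (medians 858 and 799 CPM per kb), ahead of Krt5 (421), Krt17 (152), Cd44 (19.4), Trp63 (12.6) and Cdh3 (5.10). In BBN bladder the medians were 1690 for Krt15, 1014 for Krt14 and 530 for Krt5. The share of all counts that the 7 genes took rose to a median of 0.565% in UT and 0.705% in BBN bladder, and reached 1.70% in BBN bladder 7. In UN it ran from 0.00499% in UN 2 to 1.10% in UN 3.

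The balance between the 2 keratin partners was also compared, as the log2 ratio of Krt14 to Krt5 (of CPM + 1). The 6 U libraries gave -3.80 ± 0.19 (SD), the 3 untreated bladders -5.75 ± 0.38 (SD), the 7 UN libraries -0.18 ± 0.74 (SD), the 11 UT libraries 0.53 ± 0.60 (SD) and the 10 BBN bladders 0.74 ± 0.69 (SD). Every library of a BBN-treated mouse was above every untreated library, UN 2 included (0.78). By two-sided exact permutation tests, adjusted over 5 comparisons, UT exceeded U by 4.34 (exact p = 0.000162, adjusted 0.00081), UN exceeded U by 3.63 (exact permutation p = 0.00117, adjusted 0.00293) and BBN bladder exceeded untreated bladder by 6.48 (exact permutation p = 0.00699, adjusted 0.0116). These tests took libraries as independent, though the 6 U libraries came from 3 mice and the 11 UT libraries from 10. Taken as 1 value per mouse, UT exceeded U by 4.29 (exact permutation p = 0.00699, adjusted 0.0175). UN then exceeded U by 3.63 (exact permutation p = 0.0167, adjusted 0.0278).

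U was above untreated bladder by 1.94 (exact permutation p = 0.0238, adjusted 0.0298). With 1 value per mouse, the p of that comparison was 0.1, the smallest that 3 against 3 allow, and without any 1 of the untreated bladders it was 0.0714 (exact permutation, not adjusted). UT exceeded UN by 0.71 (exact permutation p = 0.0413, adjusted 0.0413), under the limit of 0.05 used for the ratios. That call was lost with a pseudocount of 0.25 (0.69, exact permutation adjusted p = 0.0507), with 1 value per mouse (0.67, exact permutation adjusted p = 0.0619) and without UN 6 (0.48, exact permutation adjusted p = 0.106), the UN library with the lowest ratio (-1.54). It was also lost without UT 1, UT 2, UT 4, UT 5L, UT 6, UN 4, UN 7 or UN 9 (exact permutation p from 0.0506 to 0.0908, not adjusted), so that 9 of 18 libraries left out singly kept it.

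**Figure D4:**
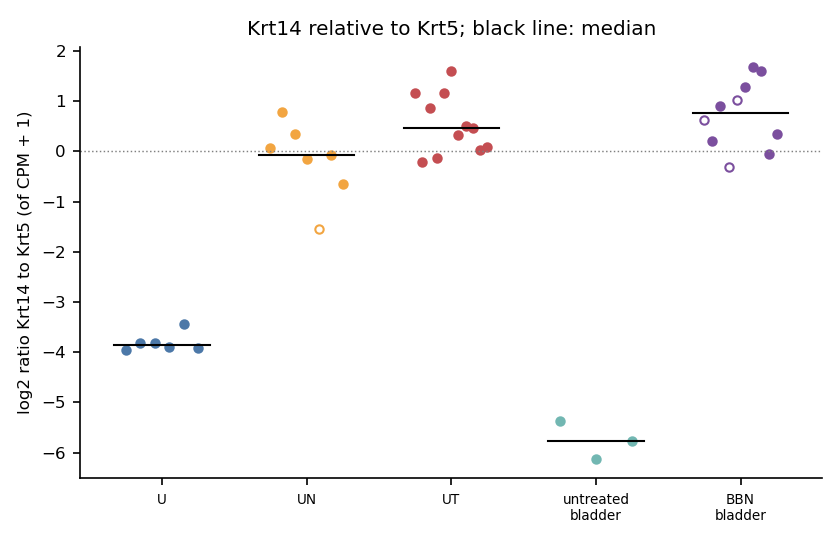
Log2 ratio of Krt14 to Krt5, of CPM + 1, with 1 point per library and the group median as a black line; white points are UN 6 and BBN bladders 1, 3 and 4. The untreated libraries lie between -6.12 and -3.44, and all libraries of BBN-treated mice between -1.54 and 1.69.

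Other genes of the basal layer, 24 in a list of hemidesmosome, laminin and adhesion genes and basal transcription factors, went the same way in part. In UT against U, 19 of the 24 were called higher and 0 lower (median log2 fold change 2.26, against 0.111 over all genes), among them Pkp1 (plakophilin 1, 6.06 ± 1.09 SE, adjusted p = 0.000217), Col17a1 (collagen XVII of hemidesmosomes, 5.98 ± 0.91 SE, adjusted p = 6.15e-05) and Lama3 (a laminin chain of the basement membrane, 3.97 ± 0.85 SE). The 10 general epithelial genes had about the same median (2.17, with 9 of 10 higher). In UN against U, 8 of the 24 were higher (median 1.25, against 0.133 over all genes and 1.26 for the epithelial genes), again with Col17a1 (4.52 ± 0.87 SE) and Pkp1 (4.47 ± 1.03 SE) in front. In the bladder, 4 were higher, Ngfr, Tfap2a, Pkp1 and Col17a1 (median 0.62 over the list, against 0.246 over all genes). In U against untreated bladder, 13 were lower and 1, Ngfr, was higher, beside 8.61% and 6.62% of all genes, and 9 of the 10 epithelial genes were lower.

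Keratins and cornified envelope genes of squamous and suprabasal cells moved with Krt14 and Krt17. Of 14 in the list, 13 were tested in the ureter, where 12 were higher in UT and 11 in UN than in U (medians 6.15 and 5.44, against 0.111 and 0.133 over all genes, with 18.7% and 12.5% of all genes called higher). Krt6b, a keratin of wounded epithelium, rose by 7.98 ± 1.60 (SE) in UT and by 6.59 ± 1.54 in UN. In the bladder, 11 of 14 were higher and 1 was lower (median 6.64, against 0.246, with 7.61% of all genes higher and 5.74% lower), led by Sprr2d (9.90 ± 2.42 SE) and Krt6b (9.28 ± 1.95 SE). Luminal genes did not share this. Of 15, such as the uroplakins, 8 were lower and 0 higher in BBN bladder, while UT had 5 called higher and 5 called lower against U, where 12.3% of all genes were lower. Between UT and UN, edgeR called 1 of the 24 basal genes higher and 1 of the 15 luminal genes lower and no other gene of these lists, beside 1.32% and 4.2% of all genes.

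The likeness of other genes to each member was described by Spearman's rho of log2(CPM + 0.5) over all 37 libraries, among 18952 genes, and has no p, since the libraries share mice, organs and epithelial content. Krt14 was most like Krt16 (0.979), with which it shares the stretch of coding sequence shown above, then Krt6a (0.963) and Wnt10a (0.942). Krt17 was most like Krt16 (0.944), Krt6b (0.934) and Krt4 (0.933). Krt5 was most like Gm5478 (0.967), which shares coding windows with it, then Plek2 and Hmga1 (both 0.950). Krt15 stood a little apart, with Acer3 (0.920), Nipal2 and Mal2 (both 0.910). Trp63 was most like Esrp2 (0.961), a splicing regulator of epithelia, Cdh3 most like Itga3 (0.964), a laminin-binding integrin chain, and Cd44 most like Lig1 (0.964), a DNA ligase of replication.

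Among the members themselves, rho over the 37 libraries was highest for Krt14 and Krt17 (0.945) and lowest for Krt17 and Trp63 (0.450). Within the 28 libraries of BBN-treated mice, the pair Krt17 and Trp63 reached 0.768, and Trp63 and Cd44 0.930. The epithelial content of these 28 libraries varied as given above, and its part in the correlations was not tested.

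**Figure D5:**
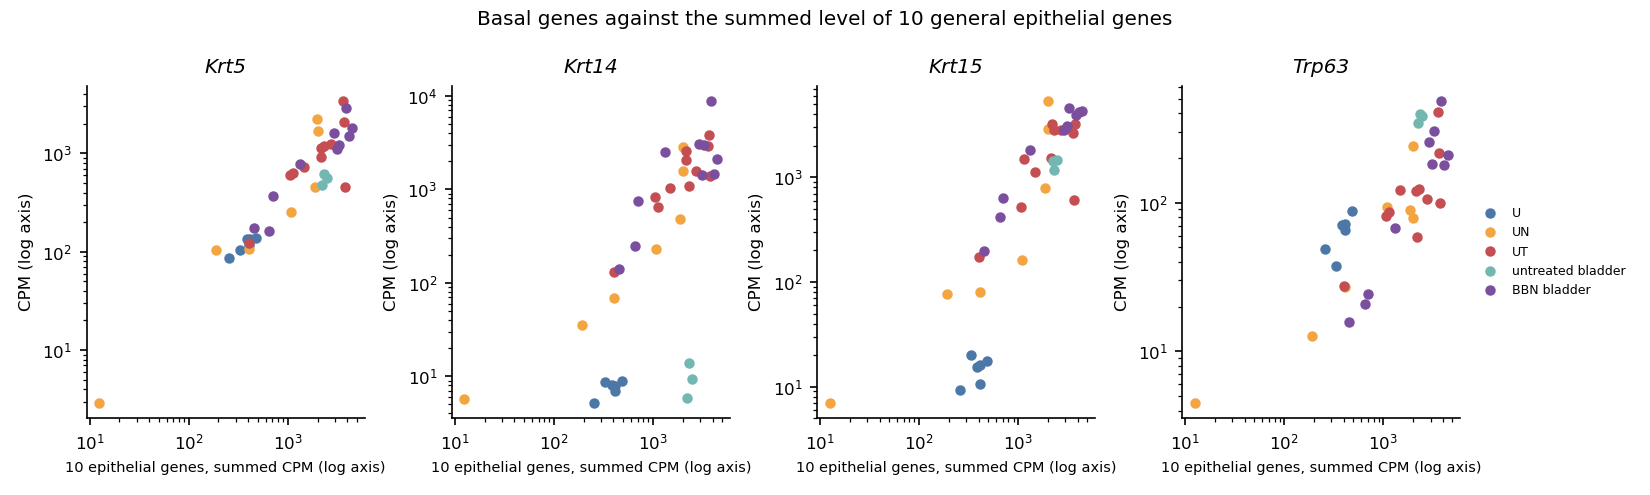
Levels of Krt5, Krt14, Krt15 and Trp63 against the summed level of 10 general epithelial genes, both in CPM on log axes, with 1 point per library and colours for the 5 groups. At like epithelial sums, U and untreated bladder lie far below the BBN groups for Krt14, U alone does so for Krt15, and UN 2 is the point at 12.5 CPM.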

How the data were processed

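Whole transcriptome sequencing (WTS) of 37 libraries was analysed as 1 table of 24421 gene symbols. The authors mapped 100-base paired reads of a DNBSEQ-G400RS to GRCm38/mm10 and deposited a table of estimated counts without normalization, in which 21.1% of the nonzero values were not whole. The submitters' processing notes name TopHat2 2.1.1 and Cuffdiff 2.2.1, and the counting program is not given in the sources used here. Each column was assigned by its library name, leaving 0 unassigned.

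Values were rounded to whole numbers and tested with the quasi-likelihood test of edgeR 4.0.16 in R 4.3.3 (TMM, filterByExpr), with Benjamini-Hochberg adjustment over all genes tested. A gene was called at FDR under 0.1 and a change of 2-fold or more. UT, UN and U were fitted together, both bladder groups together, and comparisons across organs and the interaction in a fit of all 37 libraries. SE was derived from the fold change and its F statistic. CPM used the column totals. Alternatives were RLE normalization, other filters, the mouse as a block, summed ureters, fits of 2 groups, leaving out single libraries or those of low RNA integrity, and DESeq2 1.42.0 and limma 3.58.1 (voom). Ratios used Python 3.11.15 with scipy 1.17.1. The procedure was tested on simulated counts.

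BBN-treated libraries with 1 number come from 1 mouse, as do those of untreated mice. The median correlation of deviations from the group means was 0.00363 over the 7 UT and UN pairs of 1 mouse, -0.00989 over the 7 UN and BBN bladder pairs and 0.115 over the 11 UT and BBN bladder pairs (-0.00211, 0.119 and -0.00612 over pairs of different mice). Labels do not say that libraries of a group were prepared apart, so that p-values measure the spread between libraries. Any 2 libraries of a group differed by a chi-square per degree of freedom of at least 7.71, so none was counted as a copy.

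The 7 members were named in every comparison. Of each list, counts called and up to 4 called genes with the largest absolute fold changes could be named, and for each member up to 3 genes with the highest rho. The members and lists were chosen with earlier results of these data known. Coding sequences are those of GENCODE vM21 (longest per gene). 1 listed gene and 1 shared stretch are not reported here.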

Additional observations from a re-analysis of the deposited data

Results flagged for a closer look

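The log2 ratio of Krt14 to Krt5 of U 3L, the left ureter of untreated mouse 3, was -3.44 and lay far from the other 5 U libraries, which were between -3.95 and -3.81. Its gap to the nearest was 0.725 of the range of the group. Of 24 sets of values tested in this way (7 genes and the ratio in U, UN and BBN bladder), this was the 1 that passed, and chance gives about 1 in 20.

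The BBN effect on Krt15 differed between the organs by edgeR. The difference of UN minus U and BBN bladder minus untreated bladder was 5.32 on the log2 scale in a fit that tests it directly (edgeR, adjusted p = 0.0162). By limma-voom with the mouse as a random effect, the difference was 3.58 and was not called (adjusted p = 0.215).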

How the results depend on the processing

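Of 1267 fold changes of members under alternative settings, 1193 kept their side of the threshold, 35 lost a call, 39 gained one and 0 called ones reversed, while UT against U kept its count of 6 and UT against BBN bladder its 0 in all settings. With the ureters of a mouse summed, 2 of the 7 genes were called for UN against U and 1 for U against untreated bladder. DESeq2 called 1 for UT against UN, 4 in the bladder and 4 for UN against BBN bladder. RLE normalization also gave 4 for UN against BBN bladder, as did limma-voom, which outside the bladder fit had the mouse as a random effect. Without the libraries of low RNA integrity, 6 were called in the bladder and 4 for UN against BBN bladder. With limma-voom and the mouse as a random effect, 0 were called in the interaction (Krt15 lost). The same limma-voom setting called 4 for UN against U (Krt5 and Cdh3 lost) and 3 for U against untreated bladder (Cdh3 lost). Leaving out single libraries gave 4 to 6 for UN against U, 0 to 3 for UT against UN, 2 to 3 for U against untreated bladder and 0 to 4 for UN against BBN bladder. The causes were not tested. The mouse as a replicate block raised the count for U against untreated bladder from 4 to 5 and changed no call of a member for UT against UN, UN against BBN bladder or UT against BBN bladder, the other comparisons in which it was run. Samples of 1 number were paired by their mouse.

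For the ratio of Krt14 to Krt5, the difference of UT and UN was 0.69 with a pseudocount of 0.25, 0.48 without low RNA integrity, 0.67 per mouse and 0.48 to 0.87 without single libraries. That of U and untreated bladder was 1.94 per mouse and 1.76 to 2.14 without single libraries.

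Over all genes, the calls behind the background varied more. UN against U had 1950 higher and 189 lower, against 147 and 10 with summed ureters, 751 and 550 with limma-voom, 296 lower with DESeq2 and 1563 and 378 in a fit of those groups alone. UT against UN had 206 and 658, against 0 and 0 by edgeR in a fit of those groups alone (2806 with an unadjusted p under 0.05) or with the block (623), 2 and 0 with limma-voom, 5 and 1 without UN 6, 411 and 980 with DESeq2, 253 and 1137 with no filter and 168 and 324 in the fit of all libraries. The bladder had 1373 and 1036, against 4646 and 1153 with DESeq2 and 4118 and 1544 in the fit of all libraries. U against untreated bladder had 1256 and 1633, against 2389 and 2213 with the block and 830 and 698 with summed ureters. UT against BBN bladder had 1325 and 4143, against 1458 and 672 without low RNA integrity, 582 and 616 with the block, 1129 and 1930 with limma-voom and 1496 and 6415 with no filter. UN against BBN bladder had 876 and 584 with the block, 1481 and 2989 with DESeq2 and 1924 and 1186 without low RNA integrity. RLE normalization moved the median of all genes in the bladder from 0.246 to 0.347, and for UN against BBN bladder from -0.149 to -0.273, with 1390 higher and 2477 lower in place of 1645 and 1828. The interaction had 253 and 126 with RLE, 440 and 485 with DESeq2, 501 and 137 with limma-voom and 443 and 214 without low RNA integrity, in place of 330 and 89. Leaving out single libraries gave 4 to 614 higher and 1 to 1245 lower for UT against UN, with 614 and 1240 without UN 7, 580 and 1199 without UN 3, 438 and 1245 without UT 9, and at most 12 higher and 14 lower without UT 2, UT 5R, UT 5L, UT 10, UN 2 or UN 6. The bladder had 528 to 1679 higher and 496 to 1105 lower, with the 3 lowest of both counts without untreated bladder 1 (528 and 496), 2 or 3 (532 and 507), and U against untreated bladder had 678 to 1193 higher and 1031 to 1488 lower, the lowest without untreated bladder 1 (678 and 1031) or 3 (679 and 1045). UN against U had 97 to 422 lower, UN against BBN bladder 1071 to 3649 lower and the interaction 109 to 464 higher and 18 to 220 lower. Depth limits Krt17 in U, at 0.348 to 1.08 CPM.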
